A study of Mus musculus with 8 samples.

Results

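The genes examined were 7 members of the MHC class II antigen presentation pathway, H2-Aa, H2-Ab1, H2-Eb1, H2-DMa, H2-DMb1, Cd74 and Ciita, chosen by symbol from the 27998 genes listed in all 8 libraries of a single-cell RNA-seq study of the mouse organ of Corti. Most H2-Aa and H2-Ab1 transcripts came from few cells, whereas Cd74 was detected more widely. Of the 615 myeloid-like cells, the 60 with at least 10 H2-Aa and H2-Ab1 UMIs held 98.5% of the H2-Aa and H2-Ab1 unique molecular identifiers (UMIs, tags that each mark 1 captured transcript) of that class and 84.5% of its Cd74 UMIs. Levels in myeloid-like cells were higher at postnatal day 26 (P26) and P33 than at P12 for all 6 members that could be tested. Of these, H2-Eb1 had enough counts for the test only through the later libraries. None of the 6 members passed the edgeR test, which 0.274% of all genes passed, while DESeq2 called H2-DMa and H2-DMb1. DESeq2 also called more of all genes than edgeR did, as given with the processing settings below. In nonimmune cells, whose clusters differed between the ages, Cd74 did pass at much lower levels, as did 7.9% of all genes.

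Class II molecules display peptides from proteins that a cell has taken up to CD4+ T cells. H2-Aa and H2-Ab1 encode the alpha and beta chains of the I-A molecule, and H2-Eb1 encodes the beta chain of I-E. Cd74 is the invariant chain, which escorts new class II molecules to the endosome and blocks their groove. H2-DMa and H2-DMb1 encode the 2 chains of H2-DM, the endosomal molecule that exchanges the remnant of the invariant chain for peptide. Ciita is the co-activator that switches on transcription of these genes. Dendritic cells, B cells and activated macrophages are the cells best known for them, and resident macrophages are a regular population of the cochlea. In mouse genome build GRCm38.p6, RefSeq places H2-DMa, H2-DMb1, H2-Ab1, H2-Aa and H2-Eb1 in the histocompatibility region of chromosome 17. In that order they start at 34119693, 34153191, 34263227, 34282744 and 34305867. Ciita lies on chromosome 16 from 10480014 to 10531064. H2-DMb1 has a similar neighbour, H2-DMb2, from which reads cannot be fully told apart here.

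All animals carried Fgfr3iCre, Atoh1-HA, Chrna9-GFP and a tdTomato reporter behind a loxP-flanked stop, and the inducible Cre is driven from Fgfr3 in Deiters' and pillar supporting cells. Coch P12 (n = 2) and Coch P33 (n = 1) came from uninjected mice of 12 and 33 postnatal days. Coch + Tmx P26 (n = 3) and Coch + Tmx P33 (n = 2) came from mice of 26 and 33 days given tamoxifen at P12 to 13. No P12 library was given tamoxifen and 5 of the 6 later libraries are labelled as given it, so age and induction cannot be told apart except through the single Coch P33 library. Atoh1, the induced gene, was at 90.9 to 526 CPM (counts-per-million scale, a gene's UMIs relative to all UMIs of the same cells) over the kept cells of 4 induced libraries and at 17.3 to 23.4 CPM in the uninduced ones. The library labelled Coch + Tmx P26 rep 3 was at 12.4 CPM, against its label. Of 8061 barcodes, 5982 were kept, with 3147643 to 12442054 UMIs per library and median depths of 3535 to 8754 UMIs per cell. No pair of libraries shared more than 3 barcodes.

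The class II promoters carry a conserved stretch with an X box and a Y box, where the complex that recruits CIITA binds. RefSeq promoter windows (300 bases, GRCm38.p6) were at hand for 4 members, and the stretch is shown for the 3 in which the searched letters occurred. Capitals mark AACTGATG (X box core), TGACGTCA (its X2 part) and TGATTGG (Y box), searched on both strands. The sequences run 5′ to 3′ on the gene's strand, at chr17:34287847-34287917 (minus), chr17:34305758-34305832 (plus) and chr17:34153079-34153154 (plus).
H2-Aa: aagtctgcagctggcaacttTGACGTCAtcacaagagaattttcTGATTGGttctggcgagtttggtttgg
H2-Eb1: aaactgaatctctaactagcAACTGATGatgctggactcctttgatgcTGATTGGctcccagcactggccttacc
H2-DMb1: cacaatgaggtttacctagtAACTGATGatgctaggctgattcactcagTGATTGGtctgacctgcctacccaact
In H2-Aa, 16 bases stood between the X2 and Y box matches. Between the X and Y box matches there were 20 in H2-Eb1 and 21 in H2-DMb1, so the first distance is of another pair. A Y box letter match together with an X or X2 match occurred in 78 of 32851 promoter windows (0.237%), TGATTGG alone in 7.82%, AACTGATG in 0.776% and TGACGTCA in 1.79%. Neither of the 2 windows of H2-DMa, from 34122582 and from 34125268, held a match. Neither window covers the gene start given above, and only exact letters were searched, so boxes of H2-DMa may have been missed.

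Cells were classed by clustering on genes that left the members out, so that levels could be compared between classes. The classes below are descriptions, and no test was made between them. Myeloid-like cells (12 clusters, 11 of them with 11 to 14 of the 14 macrophage markers and 1 led by Ccl17, Cd209a and Ccr2 with 6 of 8 monocyte markers) numbered 153 and 57 in Coch P12, 30 in Coch P33, 63, 62 and 48 in Coch + Tmx P26 and 92 and 110 in Coch + Tmx P33. Their share of kept cells was 8.85% at P12 (11.2% and 6.51%) and 11.0% ± 5.01 (SD, n = 6) later, a difference of 2.16 percentage points within the spread between libraries (two-sided exact permutation p = 0.714, smallest possible 0.0714). Without Coch P12 rep 2 the difference was -0.18, and as a share of leukocytes it was -16.9 percentage points (two-sided exact permutation p = 0.0714). B-like cells were rare, at 9 and 6 in Coch P12, 10 in Coch P33, 0, 10 and 15 in Coch + Tmx P26 and 1 and 7 in Coch + Tmx P33. Their share was 0.672% at P12 and 1.21% ± 0.993 (SD, n = 6) later (two-sided exact permutation p = 0.571, smallest possible 0.0714).

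The members fell into 2 sets by where their UMIs were counted. Of the UMIs in all kept cells, myeloid-like cells held 93.5% of H2-Aa (5592 of 5978), 92.8% of Cd74 (14040 of 15132) and 89.2% of H2-Ab1 (4203 of 4711). B-like cells added 2.53%, 2.98% and 2.40%. For H2-DMa the myeloid-like part was 65.8%, for H2-DMb1 43.0% and for H2-Eb1 34.4%, and most of the remainder was in nonimmune cells. H2-DMb1 and H2-Eb1 thus had more UMIs in the 4988 nonimmune cells (584 and 96) than in myeloid-like cells (451 and 56). Ciita gave 23 UMIs in all, 13 of them in myeloid-like and 4 in B-like cells.

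**Figure D1:**
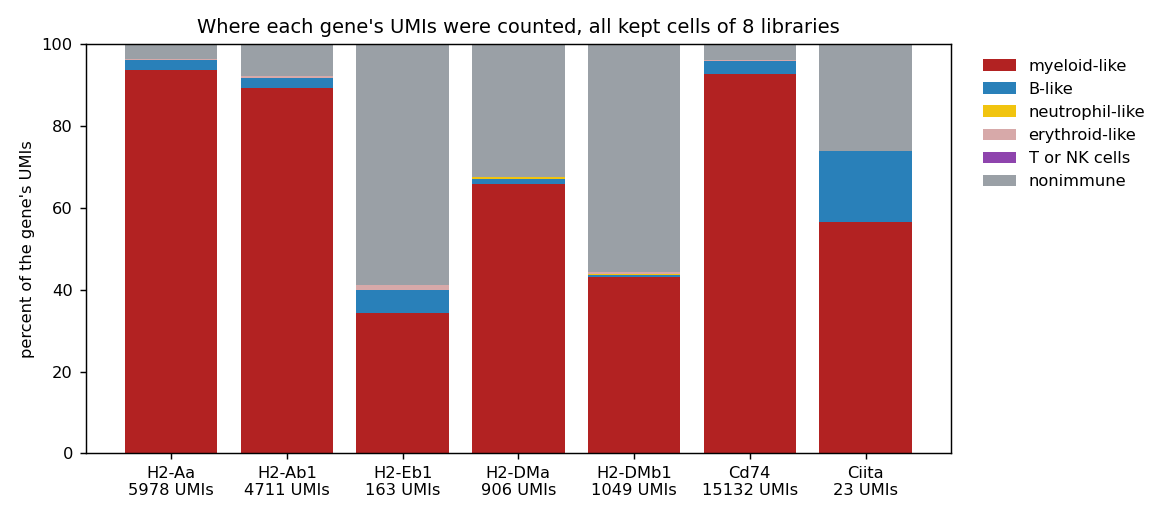
Stacked bars give the percent of each gene's UMIs (y axis) that was counted in each class of cells, pooled over 8 libraries, with the total UMIs of each gene under its bar. H2-Aa, Cd74 and H2-Ab1 are almost wholly myeloid-like, whereas 55.7% of H2-DMb1 and 58.9% of H2-Eb1 UMIs lie in nonimmune cells.

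Within myeloid-like cells the chains of I-A were higher in most later libraries, and the P12 libraries differed widely from each other. H2-Aa was at 502 and 5.55 CPM in Coch P12, 2651 in Coch P33, 403, 4451 and 2338 in Coch + Tmx P26, and 890 and 1320 in Coch + Tmx P33. H2-Ab1 was at 488 and 24.0 CPM in Coch P12, 2093 in Coch P33, 317, 3570 and 1659 in Coch + Tmx P26, and 647 and 823 in Coch + Tmx P33. For both genes 5 of 6 later libraries lay above both P12 libraries, and Coch + Tmx P26 rep 1 lay below Coch P12 rep 1, so the groups overlapped. Cd74, the invariant chain, followed the same order of libraries, at 1596 and 163 CPM in Coch P12, 7233 in Coch P33, 939, 10750 and 5463 in Coch + Tmx P26, and 2223 and 3181 in Coch + Tmx P33.

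The peptide exchange chains and H2-Eb1 did not overlap between P12 and the later libraries. The share of all genes without overlap was not counted, here or in the comparisons below. H2-DMa was at 73.2 and 40.7 CPM in Coch P12, 233 in Coch P33, 93.9, 300.4 and 158 in Coch + Tmx P26, and 98.1 and 185 in Coch + Tmx P33. H2-DMb1 was at 49.6 and 44.4 CPM in Coch P12, 219 in Coch P33, 71.8, 283 and 142 in Coch + Tmx P26, and 65.1 and 103 in Coch + Tmx P33. Both genes were lowest at P12 and highest in Coch + Tmx P26 rep 2. For H2-DMa the nearest values rested on 59 UMIs in Coch P12 rep 1 and 51 in Coch + Tmx P26 rep 1. For H2-DMb1 they rested on 40 UMIs in Coch P12 rep 1 and 57 in Coch + Tmx P33 rep 1. H2-Eb1 rested on few counts, with 1 and 0 UMIs in Coch P12, 5 in Coch P33, 4, 17 and 12 in Coch + Tmx P26, and 4 and 13 in Coch + Tmx P33. Ciita had 1 and 0 UMIs in Coch P12, 0 in Coch P33, 0, 4 and 3 in Coch + Tmx P26, and 3 and 2 in Coch + Tmx P33, too few for the test.

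**Figure D2:**
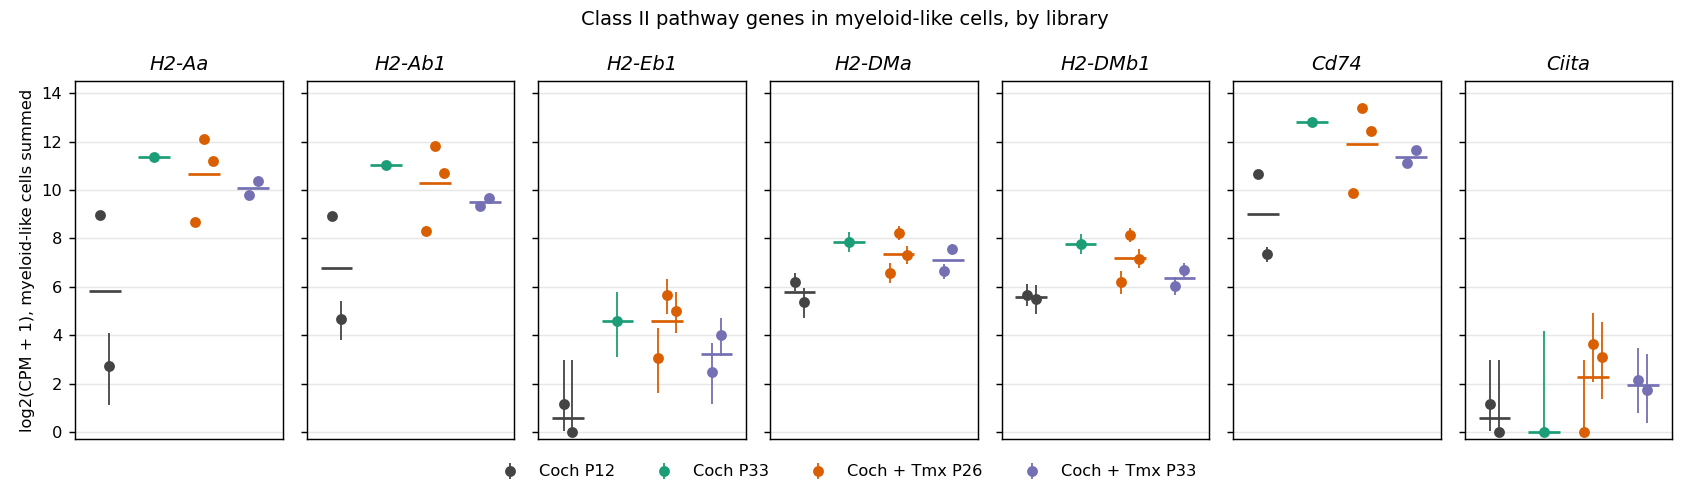
Each point is the level of a gene in the summed myeloid-like cells of 1 library, on a log2(CPM + 1) axis, with its exact 95% Poisson interval (counting error only), and horizontal bars are group means. H2-DMa and H2-DMb1 separate the P12 libraries from the 6 later ones, whereas for H2-Aa, H2-Ab1 and Cd74 the 2 P12 libraries lie far apart and overlap the later range.

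The test of later against P12 asked whether these differences exceeded the spread between libraries (edgeR quasi-likelihood test on summed counts, 4 groups in 1 fit, Benjamini-Hochberg adjustment over 8022 genes). On the log2 scale, H2-DMa was higher by 1.77 ± 0.48 (SE, adjusted p = 0.143), H2-DMb1 by 1.72 ± 0.48 (adjusted p = 0.160), Cd74 by 2.60 ± 0.93 (adjusted p = 0.269), and H2-Aa by 3.05 ± 1.18 and H2-Ab1 by 2.60 ± 1.01 (both adjusted p = 0.300). For H2-Eb1, the fitted difference of 4.40 ± 1.21 (adjusted p = 0.153) rests on a single P12 UMI and is no bound. H2-Eb1 reached the count filter only through the later libraries, so its direction was fixed in advance. So 0 of 6 members passed, where 22 of all genes did (0.274%). All 6, H2-Eb1 included, had an unadjusted p under 0.05, as did 13.3% of all genes. The median difference was 2.60 over the members, again with H2-Eb1, and -0.03 over all genes tested. With DESeq2, H2-DMa (adjusted p = 0.0198) and H2-DMb1 (adjusted p = 0.0318) passed. Its count over all genes, larger than that of edgeR, is given with the processing settings below. By edgeR, H2-DMb1 also passed without Coch + Tmx P26 rep 1 (adjusted p = 0.0385), and 0 of 6 passed when the one labelled Coch + Tmx P26 rep 3 was left out. The size of the I-A and Cd74 differences depended on the P12 libraries. Without Coch P12 rep 1 they were 8.41 for H2-Aa, 5.90 for H2-Ab1 and 4.92 for Cd74, and without Coch P12 rep 2 they were 2.09, 1.69 and 1.75. In macrophage-like clusters alone they were 6.54, 5.45 and 3.8. Over all alternatives the adjusted p of H2-Aa ranged from 3.91e-15 to 0.579, that of H2-Ab1 from 3.65e-11 to 0.588 and that of Cd74 from 1.12e-12 to 0.580, each lowest with no filter on low counts. The adjusted p of H2-DMa ranged from 0.00021 to 0.478 and that of H2-DMb1 from 0.00054 to 0.576.

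The single groups gave the same count. In Coch + Tmx P26 against Coch P12, 0 of 6 members passed by edgeR, beside 0.0623% of all genes, and 0 with DESeq2. All 6, H2-Eb1 included, had an unadjusted p under 0.05, beside 10.1% of all genes. Cd74 was higher by 2.80 ± 0.98 on the log2 scale (edgeR adjusted p = 0.358). In Coch + Tmx P33 against Coch P12, 0 passed by edgeR, beside 0.386% of all genes, and 0 with DESeq2. Here 2, H2-DMa and H2-Eb1, had an unadjusted p under 0.05, beside 10.4% of all genes. Cd74 was higher by 1.72 ± 0.98 (edgeR adjusted p = 0.608). These comparisons share the P12 libraries. Between the 2 induced ages, 0 members passed by edgeR (0 with DESeq2) and 0% of all genes did. Unadjusted there were 0 members, beside 6.71% of all genes. All 6 members were lower at P33, with a median of -1.10.

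In 7 of 8 libraries 3 to 20 cells held most of the I-A UMIs. Myeloid-like cells with at least 10 H2-Aa and H2-Ab1 UMIs together, a limit chosen after seeing the values, numbered 4 of 153 and 0 of 57 in Coch P12, 8 of 30 in Coch P33, 3 of 63, 20 of 62 and 3 of 48 in Coch + Tmx P26, and 10 of 92 and 12 of 110 in Coch + Tmx P33. As shares these were 2.61% and 0% at P12 (0 of 57 cells allows up to 5.26%) and 4.76% to 32.3% later, so all 6 later libraries lay above both P12 libraries, although the exact 95% interval of Coch P12 rep 1 (0.717 to 6.56%) covers the lowest of them. In Coch P12 rep 1 the 4 cells held 97.5% of the I-A UMIs of the class. All 60 cells also had at least 10 Cd74 UMIs, at a median of 26320 CPM, and all 12 myeloid-like cells with a Ciita UMI were among them. At the other end, 482 myeloid-like cells had no H2-Aa or H2-Ab1 UMI and 73 had 1 to 9.

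Cd74 reached beyond these cells. Of 127 myeloid-like cells with at least 10 Cd74 UMIs, 40 had none of H2-Aa or H2-Ab1, and they occurred in every library but Coch P12 rep 2. The cluster led by Il1b, Scimp and Slamf9 held 23 of the 40. In myeloid-like cells below the I-A limit, Cd74 stood at 299 and 163 CPM in Coch P12, 2055 in Coch P33, 186, 1978 and 921 in Coch + Tmx P26, and 450 and 387 in Coch + Tmx P33. Coch + Tmx P26 rep 1 was lower than Coch P12 rep 1 on this measure too.

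**Figure D3:**
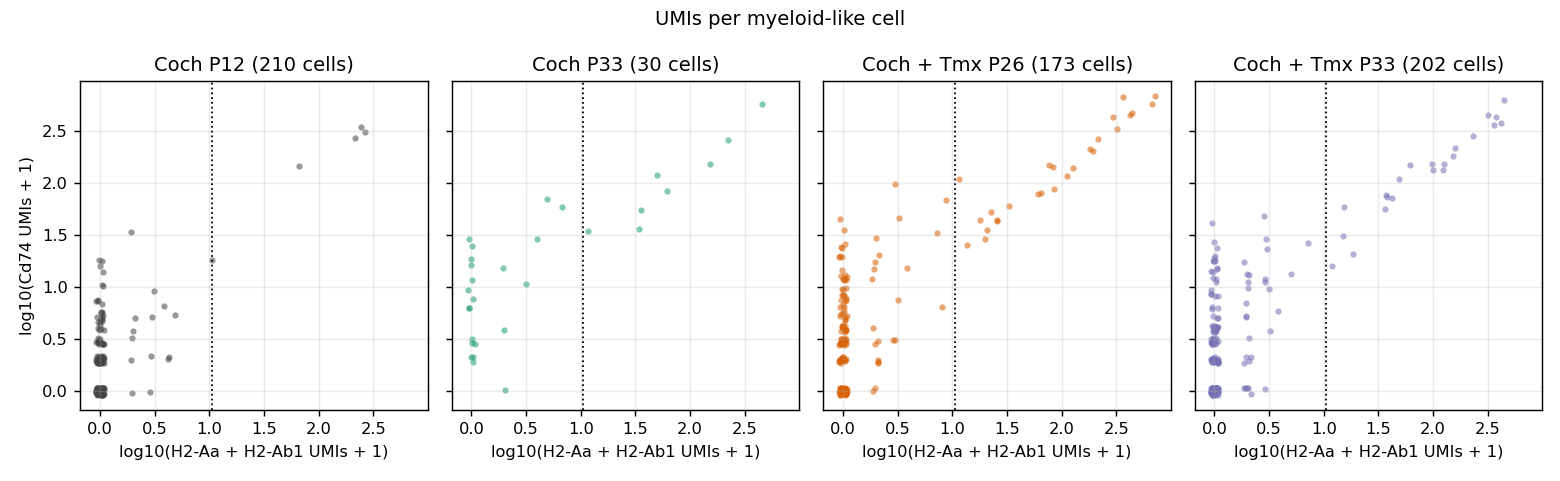
Each point is a myeloid-like cell, with its H2-Aa plus H2-Ab1 UMIs on the x axis and its Cd74 UMIs on the y axis (both log10 of UMIs + 1, slightly jittered), in 1 panel per group. Cells right of the dotted line (at least 10 UMIs, 4 of 210 at P12) rise along a diagonal, and 40 cells with at least 10 Cd74 UMIs stand in the column without H2-Aa or H2-Ab1.

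Counted at an equal depth of 1000 UMIs per cell, 1.90% of P12 myeloid-like cells (4 of 210, exact 95% interval 0.521 to 4.80%) and 15.1% of later ones (61 of 405, 11.7 to 18.9%) had an H2-Aa UMI. For Cd74 the shares were 19.0% and 44.0%. The range over the 6 later libraries was 4.76 to 30.6% for H2-Aa and 23.8 to 80.0% for Cd74, against 2.61 and 0% and 21.6 and 12.3% in the P12 libraries. Neither gene overlapped, but the lowest later shares lay inside the Coch P12 rep 1 intervals (0.717 to 6.56% and 15.3 to 28.9%). H2-Ab1 (3.92 and 3.51% against 4.76 to 32.3%) and H2-DMb1 (7.19 and 1.75% against 7.27 to 16.7%) did not overlap either. H2-DMa did, at 6.54 and 8.77% at P12 and 5.43 to 21.0% later. How many of all genes had shares without overlap was not counted. H2-Eb1 and Ciita were seen in at most 1 cell of a library. For comparison, nonimmune cells gave 0.441% for H2-Aa and 0.742% for Cd74 at the same depth, from median depths of 5988 UMIs in nonimmune and 6031 in myeloid-like cells. Without thinning, 16.7% of myeloid-like and 2.71% of nonimmune cells had an H2-Aa UMI and 62.3% and 6.21% a Cd74 UMI. These pooled shares count cells of a few libraries and carry no test.

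Pooled over libraries, levels were highest in a pair of clusters. The cluster led by Ccl17 (a chemokine of dendritic cells), Cd209a (the mouse DC-SIGN) and Ccr2 (the receptor of recruited monocytes) had 43 cells and 21235 CPM of Cd74, 10131 of H2-Aa, 7748 of H2-Ab1 and 664 of H2-DMa. It also held 10 of the 13 myeloid-like Ciita UMIs and 35 of the 56 of H2-Eb1. It was split within itself, since 21 of its 43 cells had an H2-Aa UMI. The cluster led by Il1b, Scimp and Slamf9 had 127 cells, 7130 CPM of Cd74 and 2406 of H2-Aa. Next came the cluster led by Lyve1 and Folr2, genes of perivascular macrophages, at 1239 CPM of Cd74, with H2-Aa in 7 of 64 cells. Single cells there were high, since 1 cell of Coch + Tmx P33 rep 1 held 218 H2-Aa UMIs and 1 of Coch + Tmx P26 rep 2 held 193. The other 9 clusters ranged from 70.8 to 1132 CPM of Cd74. The lowest was a second cluster with Fcna, Lyve1 and Folr2, and the cluster led by P2ry12, a microglial gene, had 307 CPM.

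**Figure D4:**
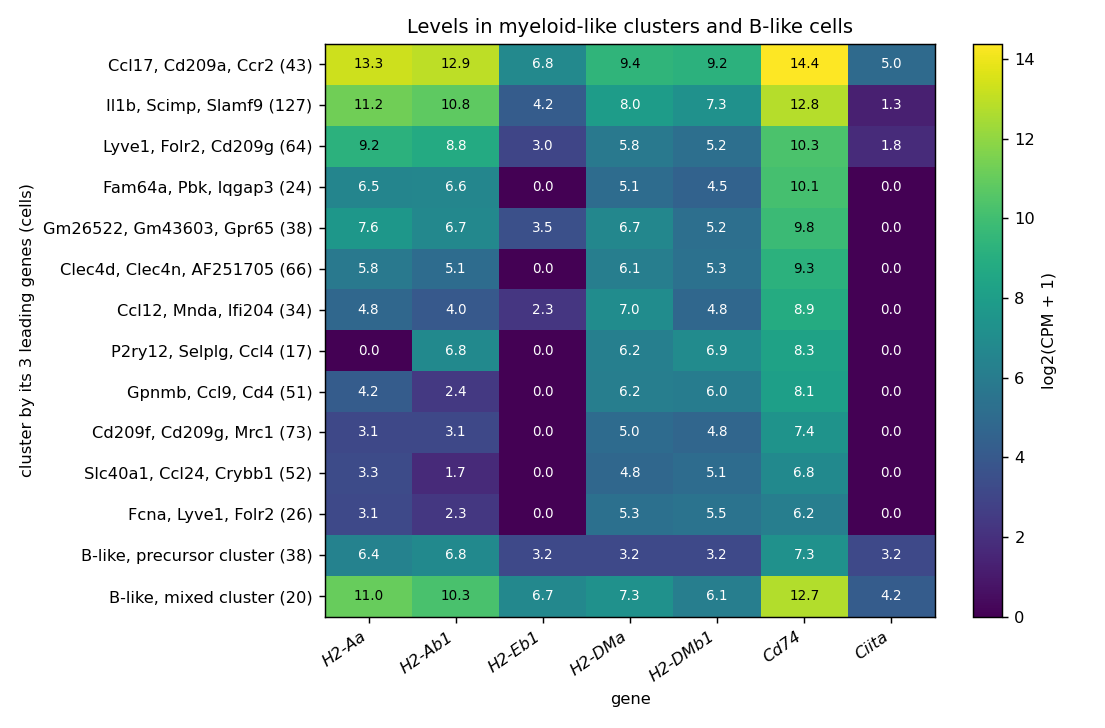
The colour and number in each cell give the level of a gene on a log2(CPM + 1) scale in each of 12 myeloid-like clusters, ordered by Cd74 and named by their 3 leading genes, and in the B-like cells in 2 groups (number of cells in brackets). The top 2 rows hold the highest levels of H2-Aa, H2-Ab1, Cd74, H2-DMa and H2-DMb1 among the myeloid-like clusters.

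These 2 clusters made up 4.58% and 3.51% of the myeloid-like cells of Coch P12, 60.0% in Coch P33, 15.9%, 56.5% and 37.5% in Coch + Tmx P26, and 46.7% and 33.6% in Coch + Tmx P33. All later libraries lay above both P12 libraries on this share, for which no test was made because the clusters were picked by level. They held 89.0% of the H2-Aa, 89.3% of the H2-Ab1 and 84.8% of the Cd74 UMIs of the class, but 65.6% of H2-DMa and 67.6% of H2-DMb1. Libraries differed in this, since the H2-Aa share was 0% in Coch P12 rep 2 (3 UMIs in all), 54.3% in Coch + Tmx P26 rep 1, 68.1% in Coch + Tmx P33 rep 1 and 87.5 to 98.6% in the other 5. Outside them, Cd74 was at 305 and 104 CPM in Coch P12, 1293 in Coch P33, 617, 3043 and 599 in Coch + Tmx P26, and 987 and 213 in Coch + Tmx P33, so that Coch + Tmx P33 rep 2 no longer stood above Coch P12 rep 1. H2-DMb1 outside them was at 29.9 and 45.4 CPM at P12 and 29.7 to 113 later, and H2-DMa at 39.1 and 36.0 CPM at P12 and 33.5 to 113 later, and both overlapped. H2-Aa outside them did not overlap, at 15.6 and 5.68 CPM at P12 and 23.8 to 1090 CPM later, whereas H2-Ab1 did, at 10.4 and 22.7 CPM at P12 and 16.8 to 824 CPM later. Several other clusters came mostly from 1 library, so cluster and library were partly the same.

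B-like cells held class II transcripts only in part. The precursor cluster, led by Vpreb1 and Vpreb3, components of the pre-B-cell receptor, had 38 cells with 156 CPM of Cd74, 111 of H2-Ab1 and 81.8 of H2-Aa, below the mean of myeloid-like cells (3055, 915 and 1217 CPM). A further 20 cells came from a mixed lymphocyte cluster and were called B-like when they held UMIs of at least 2 of 6 B-cell genes, a choice made after seeing the cluster. They had 6789 CPM of Cd74, 1230 of H2-Ab1 and 2078 of H2-Aa. Of their 392 Cd74 UMIs, 203 came from Coch + Tmx P26 rep 2, in which all 9 such cells had Cd74 and 5 had H2-Aa, and 105 from 1 cell of Coch P33, which also had 35 H2-Aa UMIs. In Coch P12 rep 2 the 2 such cells had 46 and 25 Cd74 UMIs and no H2-Aa UMI. The 8 such cells of the one labelled Coch + Tmx P26 rep 3 had 13 Cd74 UMIs together. No library of P12 had 10 B-like cells, so ages were not compared. The 72 neutrophil-like cells were at 12.4 CPM of Cd74 and 4.15 of H2-Aa, near the nonimmune level, and the 13 T or NK cells of the mixed cluster had 0 Cd74 and 1 H2-Ab1 UMI.

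In nonimmune cells, levels were low, and Cd74 was higher at the later ages. Cd74 was at 2.63 and 3.23 CPM in Coch P12, 23.5 in Coch P33, 13.8, 31.7 and 9.97 in Coch + Tmx P26, and 38.0 and 18.7 in Coch + Tmx P33, with no overlap. How many of all genes did not overlap in nonimmune cells was not counted. H2-Aa was at 0.614 and 1.67 CPM in Coch P12, 5.83 in Coch P33, 2.11, 14.1 and 4.76 in Coch + Tmx P26, and 17.4 and 7.38 in Coch + Tmx P33. In Coch + Tmx P33 rep 1, 1 of 383 nonimmune cells held 67.3% of the H2-Aa and H2-Ab1 UMIs of the class. There 51 of the 65 H2-Aa UMIs came from 5 cells of the cluster led by Npy and Bhmt2. In Coch + Tmx P26 rep 2, 1 of 469 cells held 31.2%. H2-Aa was not tested without these cells. Later against P12, Cd74 was higher by 2.90 ± 0.50 on the log2 scale (edgeR adjusted p = 0.0173) and passed, where 7.9% of all genes passed, and H2-Aa by 2.72 ± 0.80 did not (adjusted p = 0.0762). DESeq2 called both. Without Coch P12 rep 1, Cd74 lost its call (log2 difference 2.71, edgeR adjusted p = 0.142), and over all alternatives its adjusted p ranged from 4.86e-08 to 0.142. Without Coch + Tmx P26 rep 1, H2-Aa passed too. In Coch + Tmx P33 against Coch P12, 2 of 6 members passed, beside 11.8% of all genes, namely Cd74 (3.14 ± 0.55, edgeR adjusted p = 0.0139) and H2-Aa (3.30 ± 0.88, adjusted p = 0.0467). That count was 0 without Coch P12 rep 1 or without Coch + Tmx P33 rep 1, 1 without Coch P12 rep 2 or without Coch + Tmx P33 rep 2, and 3 without the one labelled Coch + Tmx P26 rep 3. In Coch + Tmx P26 against Coch P12, 2 of 6 had an unadjusted p under 0.05, beside 18.8% of all genes, and DESeq2 called 2. The count passing with edgeR was 0 of 6, beside 1.76% of all genes. It was 1 without the one labelled Coch + Tmx P26 rep 3. Between the induced ages 0 passed (0 unadjusted, 0 with DESeq2), beside 0.0637%.

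Free RNA from lysed cells gives UMIs in droplets of other cells, so these levels were set beside 6 myeloid markers (C1qa, C1qb, C1qc, Csf1r, Tyrobp and Fcer1g) in the same nonimmune cells. As a percent of the myeloid-like level of the same library, these ranged from 0.129 to 1.04%. Cd74 lay within the range of the markers of its own library in 3 libraries, above it in 3 and below it in 2, and H2-Aa within it in 2, above in 3 and below in 3. Later against P12, Tyrobp differed by -0.01 ± 0.51 and C1qb by 0.07 ± 0.43 on the log2 scale, whereas Cd52 was at 1.71 ± 0.61, Cd53 at 1.41 ± 0.57 and Apoe at 0.60 ± 0.16. Of the macrophage and leukocyte lists 0 of 13 and 0 of 8 tested genes passed (edgeR adjusted p, with 1 and 3 at an unadjusted p under 0.05 and 1 and 1 with DESeq2, Apoe and Cd52). Of all genes, 7.9% passed by edgeR and 26.3% had an unadjusted p under 0.05. The summed macrophage markers were at 66.0 and 181 CPM in nonimmune cells of Coch P12 and 71.3 to 255 CPM later. Few nonimmune cells held many Cd74 UMIs. The 6 with at least 10 held 200 of the 596 UMIs, and without them Cd74 was at 2.63 and 3.23 CPM at P12 and 6.60 to 23.5 CPM later, still without overlap. In myeloid-like cells themselves, Tyrobp was at 3813 and 4059 CPM at P12 and 2702 to 4170 later. There C1qb was at 4823 and 5291 CPM at P12 and 3261 to 5847 later, whereas Cd74 differed by 2.60 ± 0.93 on the log2 scale. The part of free RNA in the age difference was not tested.

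**Figure D5:**
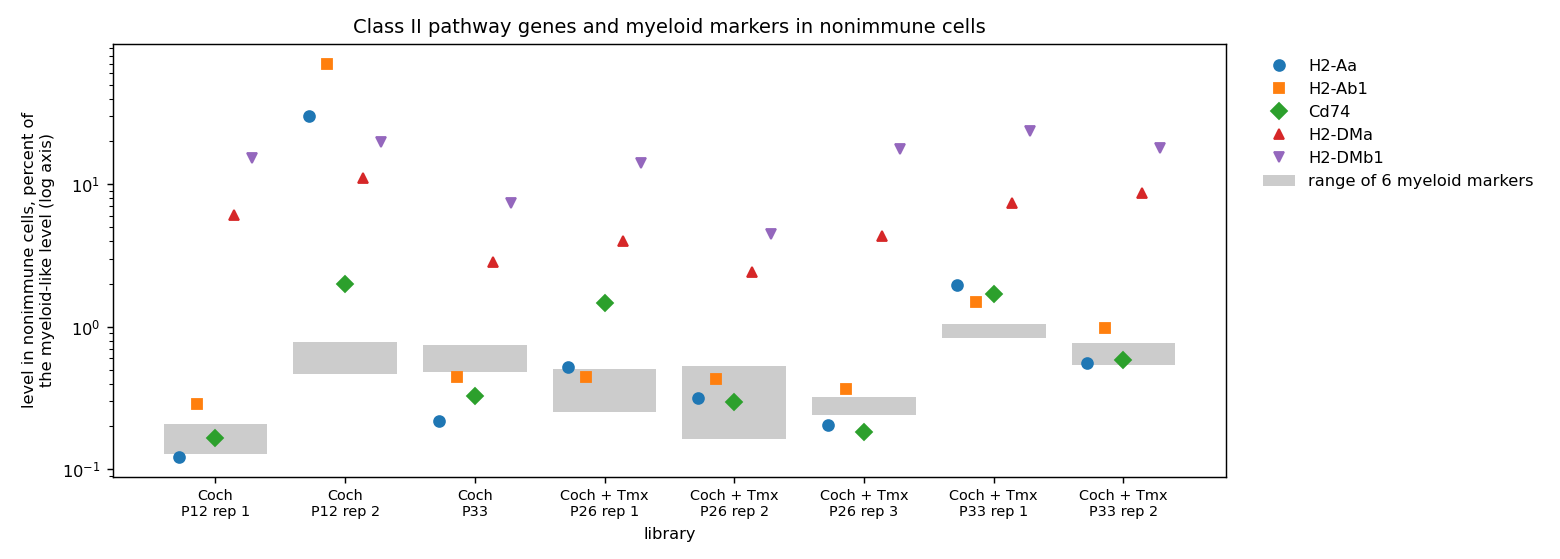
Symbols give the level of 5 genes in nonimmune cells as a percent of their level in myeloid-like cells of the same library (log axis), and grey bars span 6 myeloid markers. H2-DMa and H2-DMb1 lie above the markers in all 8 libraries, while Cd74 lies within their range in 3 libraries and H2-Aa in 2.

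H2-DMa and H2-DMb1 stood well above the markers. In nonimmune cells H2-DMb1 reached 4.45 to 23.8% and H2-DMa 2.41 to 11.0% of their myeloid-like levels, above the marker range in 8 of 8 libraries. This was not particular to them. H2-Eb1, on few UMIs, lay above the range in all 7 libraries with a myeloid-like UMI, at 1.55 to 191%. H2-Ab1 lay above it in 5 libraries and Ciita, on few UMIs, in 4. H2-DMb1 was higher in the clusters named nonsensory epithelial-like by their markers than in the other nonimmune cells together. Those 919 cells in 6 clusters were at 34.0 CPM against 6.84 CPM in other nonimmune cells, and held 58.0% of the nonimmune H2-DMb1 UMIs. The level was higher in epithelial-like cells in every library, from 24.4 against 5.31 CPM in Coch + Tmx P26 rep 1 to 64.3 against 10.6 CPM in the one labelled Coch + Tmx P26 rep 3. It was not uniform, since the cluster led by Ccer2 and Grp, with 30 cells in Coch + Tmx P26 rep 1 and 42 and 39 in Coch + Tmx P33, was at 2.44 CPM and that led by Alox12e at 59.3 CPM, and a supporting cell-like cluster led by Gm13782 and Rbp7 was at 32.4 CPM. In the same cells, pooled, Cd74 was at 13.6 against 12.8 CPM and Tyrobp at 16.4 against 18.01 CPM. By library these varied in both directions, as Cd74 was at 15.5 against 52.8 CPM in Coch + Tmx P33 rep 1 and 5.57 against 2.21 CPM in Coch P12 rep 1. The neighbour H2-DMb2 had 76 UMIs in the epithelial-like cells against 339 of H2-DMb1. Over all nonimmune cells H2-DMb1 was at 7.54 and 8.76 CPM at P12 and 10.1 to 25.4 later, without overlap, but the difference of 0.97 ± 0.41 did not pass (edgeR adjusted p = 0.174). H2-DMa differed by 0.73 ± 0.40 (edgeR adjusted p = 0.290).

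H2-Ab1 and H2-Eb1 departed from their partners outside the leukocytes. In Coch P12 rep 2, 149 of the 162 nonimmune H2-Ab1 UMIs came from the 17 cells of a Schwann-like cluster with Klk6 and Mog, genes of myelinating glia, among its leading genes. Of these cells 12 were positive and 6 had at least 10 UMIs, up to 48 in a cell, with 6 H2-Aa, 2 Cd74 and 19 Tyrobp UMIs over all 17. The same cluster had 4 H2-Ab1 UMIs in 11 cells of Coch + Tmx P26 rep 2 and 3 in 20 cells of rep 3, so this was seen in 1 library. Outside the cluster, H2-Ab1 in nonimmune cells was at 1.40 and 1.43 CPM at P12 and 1.41 to 14.4 CPM later. With the cluster its difference was -0.19 ± 0.89 (edgeR adjusted p = 0.921), and it was 2.54 without Coch P12 rep 2 and -1.11 without Coch P12 rep 1 (adjusted p from 0.178 to 0.999 over the alternatives). H2-Eb1 stayed at 2.37 and 2.61 CPM at P12 and 0.763 to 2.82 CPM later (-0.72 ± 0.47, edgeR adjusted p = 0.362). Ciita had 6 UMIs in all nonimmune cells.

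Over all kept cells of a library, where fewer cells of a type and less RNA per cell cannot be told apart, H2-Aa was at 33.1 and 1.70 CPM at P12 and 45.1 to 526 later, with a median of 174. Cd74 was at 106 and 17.1 CPM at P12 and 113 to 1274 later, with a median of 416. Only H2-Eb1 and Ciita overlapped between the ages, and the share of all genes without overlap was not counted. With edgeR 0 of 7 members passed later against P12, beside 6.56% of all genes. At an unadjusted p under 0.05 there were 5 members, beside 25.7% of all genes. DESeq2 called 2 members, and its count over all genes is given with the processing settings below. H2-DMb1 was nearest (1.35 ± 0.36, edgeR adjusted p = 0.0687), and without Coch + Tmx P26 rep 1, H2-Ab1, H2-DMa and H2-DMb1 passed. Against Coch P12, 0 of 7 passed by edgeR in Coch + Tmx P26, beside 1.78% of all genes, and 0 in Coch + Tmx P33, beside 9.49%. Unadjusted there were 5 in each, beside 18.9% and 27.8% of all genes, and DESeq2 called 2 in each. Leaving out Coch + Tmx P26 rep 1 raised the edgeR counts to 2 and 3, and the Coch + Tmx P33 count was 1 without Coch P33, without Coch + Tmx P26 rep 2 or without the one labelled Coch + Tmx P26 rep 3. Between the induced ages 0 of 7 passed by edgeR, beside 0.00672% of all genes, and 0 unadjusted, beside 11.8% (0 with DESeq2).

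Of 45 further genes of antigen presentation, 39 were tested in myeloid-like cells, and with edgeR 0 passed later against P12 (14 at an unadjusted p under 0.05, 0 with DESeq2). Of all genes, 0.274% passed by edgeR and 13.3% had an unadjusted p under 0.05. The median difference of the 39 genes was 0.16 on the log2 scale, beside -0.03 for all genes. H2-DMb2, the second H2-DM beta chain, differed by 1.25 ± 0.49 and H2-Oa, a chain of the H2-O molecule that restrains H2-DM, by 0.20 ± 0.66. Ctss, the protease that trims the invariant chain, differed by 0.34 ± 0.25 and Ifi30, a thiol reductase of the endosome, by 0.40 ± 0.40. Of the interferon response that induces Ciita, Ifngr1 differed by 0.16 ± 0.34 and Irf1 by 1.08 ± 0.56. None of these passed (edgeR adjusted p from 0.308 to 0.942). H2-Ob and Nlrc5 fell below the count filter. The class I genes had the highest list median, 0.81 over 11 genes, with H2-K1 at 0.70 ± 0.28 (adjusted p = 0.319) and B2m at 0.53 ± 0.24 (adjusted p = 0.371) by edgeR. In nonimmune cells 4 of 11 class I genes were higher at the later ages, H2-K1 (1.27 ± 0.20, adjusted p = 0.0118), H2-D1, B2m and Tap2, while Cd40 and Jak2 of the other lists were lower. These 6 of 37 genes compare with 7.9% of all genes by edgeR. DESeq2 called 10, and its share over all genes is not given here. H2-D1, Tap2, Cd40 and Jak2 are named here because they passed, a choice made after their values were seen.

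Across 15 sums of at least 10 cells, each from 1 myeloid-like cluster and 1 library, non-member genes whose log2(CPM + 1) was among the most like that of Cd74 were Slamf9 (Pearson's r = 0.898), Rpl32 (0.822), Cd72 (0.809), Gltscr2 (0.803), Il1b (0.792), Cd52 (0.782) and Twf2 (0.781), of 2062 genes with at least 200 UMIs. H2-Aa was at 0.935, H2-Ab1 at 0.835 and H2-DMa at 0.828. The sums share libraries, clusters and depth, so these values only describe them. Slamf9 and Il1b are also leading genes of the cluster with the second highest Cd74.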

How the data were processed

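Single-cell suspensions of organ of Corti were profiled with 10x Chromium 3′ v2 chemistry. The authors aligned reads to mm10 with Cell Ranger (version not given in the sources used here), and the deposited values are unnormalised UMI counts per gene and barcode. Of 8061 barcodes, 1954 had fewer than 500 genes and 84 had a mitochondrial share of 25% or more. These were dropped, then 41 of the 6023 scored by doublet score (scrublet, 0.8% per 1000 barcodes). Clustering used scanpy 1.11.5 (2000 variable genes without the members, 30 components, 15 neighbours, Leiden resolution 1.0), and leukocytes were clustered again. A cluster was named from at least 3 fixed markers. Class names were rebuilt, so differences from the study may come from them. Counts were summed per library and class (at least 10 cells) and tested with edgeR 4.0.16 (TMM, filterByExpr, threshold 0.05 on the adjusted p), with DESeq2 1.42.0 as an alternative. The scripts were tested on simulated data. The members and lists were chosen with earlier results of these data known. All 7 members and 12 set genes of the wider lists were to be named whatever their result, except H2-Ea-ps, which was not analysed here, and the rule added no gene, since none of the lists passed by edgeR in myeloid-like cells. The 4 others named were chosen after their values were seen. The genes most like Cd74 were the 8 highest by Pearson's r. Some genes that these rules name are not reported here. Replicate numbers were not used as pairs, since same-numbered libraries did not all deviate together. Libraries are described as biological replicates, but the sources do not tie each to its own animals, so p-values measure the spread between libraries. Poisson and binomial intervals, at 95%, and limits for a count of 0 (3 counts) cover counting error only. A count filter, normalisation, replicate block, 2 age levels, libraries, gene and mitochondrial limits, doublets, mixed droplets and classes were varied.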

Additional observations from a re-analysis of the deposited data

How the results depend on the processing

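Where the values below moved, the cause was not tested. Members called in myeloid-like cells later against P12 rose from 0 to 2 with DESeq2 and to 6 with no filter on low counts, which also gave 6 for Coch + Tmx P26, 5 for Coch + Tmx P33 (both against P12) and 2 between the induced ages. Over all kept cells they were 2 with DESeq2 (2 and 2 for the single groups), 5 with no filter (2 and 3), and 1 for Coch + Tmx P33 with 300 detected genes. In nonimmune cells they went from 1 to 2 with DESeq2 and with no filter (2 and 1 for Coch + Tmx P26). The count of Coch + Tmx P33 went from 2 to 1 with a mitochondrial maximum of 10% or no doublet removal. All genes called in myeloid-like cells went from 22 to 112 with DESeq2, 450 with no filter, 9 with 2 age levels and 44 with no doublet removal. Over all kept cells they went from 976 to 1482, 1510 and 577 by the first 3 of these, and in nonimmune cells from 1116 to 1798 with no filter and 585 with 2 age levels. Leaving out 1 library at a time gave 0 to 1 members and 0 to 128 genes in myeloid-like cells (0 without either P12 library, 128 without Coch + Tmx P26 rep 1), 0 to 3 members (0 to 2 and 0 to 3 for the single groups) and 70 to 1412 genes over all kept cells, and 0 to 2 members (0 to 1 and 0 to 3) and 69 to 1557 genes in nonimmune cells, the lowest gene counts of both being without Coch P12 rep 1. With the replicate block, members were 0 in myeloid-like cells, 2 over all kept cells (2 for Coch + Tmx P33), and in nonimmune cells 1 (for the P26 group 1, for the induced P33 group 3), and genes were 43, 1651 and 1898. Same-numbered libraries correlated at -0.085 to 0.052 in myeloid-like cells, -0.050 to 0.20 over all kept cells and -0.050 to 0.209 in nonimmune cells, and 3, 4 and 5 of 7 libraries correlated best with their own number, so the numbers were not taken as pairs. The myeloid-like share differed by -16.9 percentage points as a share of leukocytes, and from -0.182 (without Coch P12 rep 2) to 4.50 with 1 library left out. At 2000 UMIs per cell, shares in myeloid-like cells were 2.28% for H2-Eb1, 18.9% for H2-DMa, 15.1% for H2-DMb1 and 42.2% for Cd74. In nonimmune cells they were 0.828% for H2-Aa, 0.949% for H2-Ab1, 1.27% for H2-DMa, 2.14% for H2-DMb1 and 1.70% for Cd74. Later against P12, the only member called by edgeR in the main setting was Cd74 in nonimmune cells, and its fold change kept its direction. H2-Ab1 in nonimmune cells, which was not called, ranged from -1.11 to 2.54 on the log2 scale. With 2 P12 libraries and few positive cells, depth and number of cells limit every comparison of age.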

Other observations

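The 2079 barcodes left out by the filters held few member UMIs, with 110 of Cd74 in 83 barcodes and 50 of H2-Aa in 35, and 1 barcode had at least 10 Cd74 UMIs.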
